A study of Mus musculus with 2 samples.

Results

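Among the cells dissociated from orthotopic pancreatic tumors of PBS and cmExoaCD11b treated mice, 90 of 14022 kept barcodes expressed the simple epithelial keratins and are described here as keratin-expressing tumor epithelial cells. They were selected on measured values: a barcode needed at least 1000 UMIs (unique molecular identifiers, each standing for 1 captured transcript), 200 or more detected genes and no more than 20% of UMIs from mitochondrial genes, with Krt8, Krt18 and Krt19 together at 0.1% of UMIs or more. Barcodes with more than 2 UMIs of Cd3e, Cd79a and C1qa (T cell, B cell and macrophage genes), or with 5% or more of UMIs from the neutrophil genes S100a8 and S100a9, were removed. The rule found 59 cells among 6904 kept barcodes in PBS and 31 among 7118 in cmExoaCD11b. Because the keratins chose these cells, their keratin levels are given as a description and support nothing.

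Male C57BL/6J mice, 5 to 6 weeks old when obtained, carried K210 cells implanted into an otherwise healthy pancreas. K210 is a tumor line isolated from a spontaneous pancreatic ductal adenocarcinoma of a C57BL/6J mouse with the Pdx1-Cre transgene and Trp53 fl/fl, in which Trp53 is deleted where the Pdx1 promoter drives Cre. From day 7 after implantation, mice received intraperitoneal injections of PBS or of cmExoaCD11b at 5 µg cGAMP per mouse. The latter are exosomes of mouse embryonic fibroblasts that carry Il12 mRNA and the STING agonist cGAMP and display antibodies to CD11b, an integrin of myeloid cells. Tumors of 3 mice were pooled per group 48 h after treatment, and each pool gave 1 droplet library of 3' transcript tags. The study describes this experiment as a profile of immune cells in the tumor, so the epithelial cells are a small remainder of the suspension. The sex of the mouse that K210 came from is not given in the sources used here. With 1 library per group there was no test between treatments: every ratio compares these 2 libraries, and the 95% intervals cover counting error only, not the spread between mice.

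Krt8 and Krt18 form the intermediate filaments of simple epithelia, and Krt7 and Krt19 are added in pancreatic ducts and in ductal adenocarcinoma. Carcinoma cells of the pancreas also secrete chemokines and growth factors that recruit and shape myeloid cells, and they present peptides on MHC class I molecules to CD8+ T cells. Type I interferon, produced after STING is activated, and interferon-gamma, produced by lymphocytes stimulated with IL-12, both raise transcription of antiviral and antigen-presentation genes in epithelial cells through STAT and IRF factors.

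The letters that interferon-regulated promoters are known for were looked up in 3 genes that the results below turn on. The search used GAAANNGAAA and its other strand TTTCNNTTTC in the 250 bases before the first listed start of each gene in a RefSeq table of GRCm38.p6. A match was found in 821 of 27025 promoters (3.04%). Of the genes in the lists used below with a promoter in that table, 13 of 31 interferon-stimulated genes (40 listed), 10 of 14 interferon-gamma induced genes (21 listed), 3 of 20 MHC class I presentation genes (23 listed) and 1 of 7 MHC class II presentation genes (10 listed) had one. Matching letters are shown in capitals, 5′ to 3′ on the plus strand. The Ifit3 window (chr19:34583353-34583436) holds 2 matches, which begin 156 and 122 bases before the start. The Gbp2 window (chr3:142620584-142620633) holds 1, beginning 59 bases before the start, and the B2m window (chr2:122147528-122147577) holds 1, beginning 139 bases before it. A match describes the letters only and was not tied to binding.
Ifit3: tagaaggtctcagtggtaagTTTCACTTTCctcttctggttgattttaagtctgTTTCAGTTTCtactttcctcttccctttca
Gbp2: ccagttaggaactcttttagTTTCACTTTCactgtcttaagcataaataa
B2m: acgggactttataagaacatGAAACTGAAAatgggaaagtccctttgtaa

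The keratin-expressing cells fell into a deep and a shallow set. Of the 59 PBS cells, 30 had at least 1 UMI of Xist, the long non-coding RNA of the inactive X chromosome, and 20 of the 31 cmExoaCD11b cells did. These Xist-positive cells held a median of 38679 UMIs and 6262.5 genes in PBS and 33492.5 UMIs and 5788.5 genes in cmExoaCD11b, with ranges of 7392 to 93542 and 4634 to 71295 UMIs. They supplied 93.98% and 94.96% of all UMIs of the keratin-expressing cells. The 29 and 11 Xist-negative cells were shallow, at medians of 2128 and 2110 UMIs, and their selection rested on a median of 4 and 8 keratin UMIs against 195 and 121.5 in the Xist-positive cells. Over all 59 and 31 cells the medians were 9359 and 17229 UMIs, beside 3781 and 4787 in the other kept barcodes. The Xist split was chosen after the data were seen, so results follow for all 90 cells and for the 50 Xist-positive cells.

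**Figure D1:**
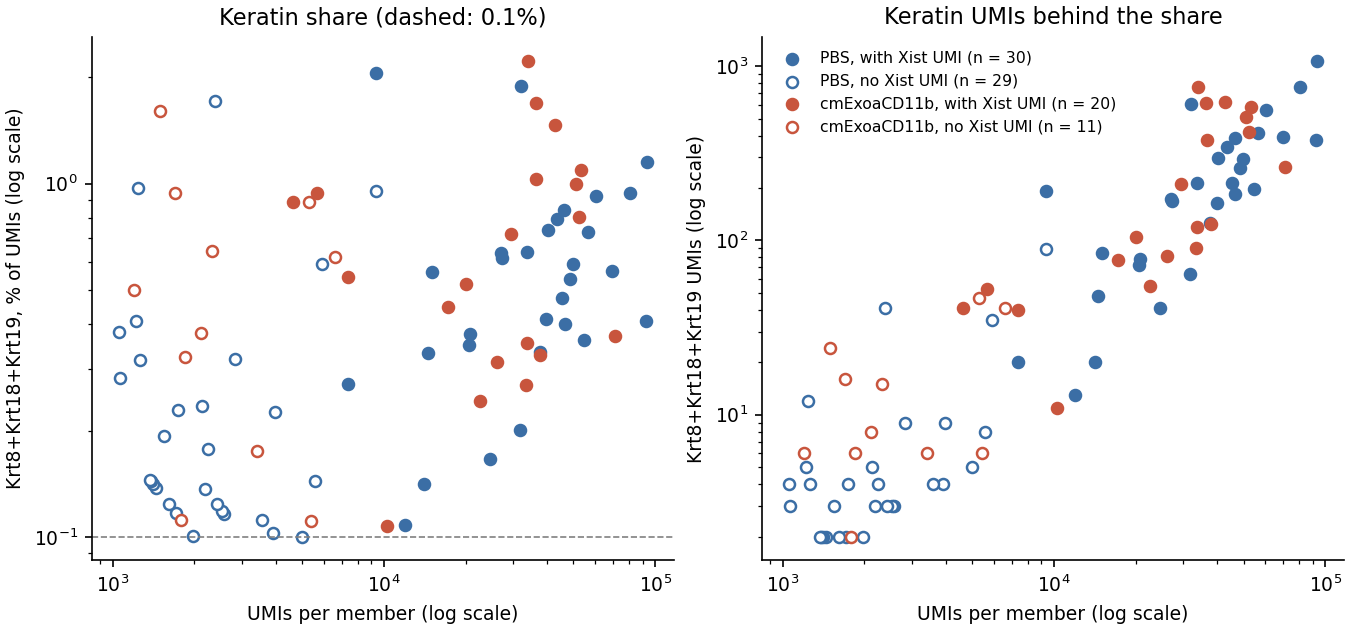
Each point is 1 keratin-expressing cell, with its UMIs on a log axis against the share (left, %) and the number (right, UMIs) of Krt8, Krt18 and Krt19 transcripts, both on log axes; filled points had an Xist UMI (30 PBS, 20 cmExoaCD11b) and open points none (29 and 11). The dashed line is the 0.1% rule, and the open points gather at low depth, around 2128 and 2110 UMIs.

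Xist, which the rule did not use, was far more abundant in the keratin-expressing cells than in the rest of the suspension. Over all 59 and 31 cells it stood at 2021 CPM (UMI counts scaled to a common library total) in PBS and 1771 CPM in cmExoaCD11b, against 3.89 and 3.66 CPM in the other kept barcodes. Depth alone gives deep cells more chances of a UMI, so each cell was also thinned to 1000 UMIs, in 1 random draw per set of cells. Xist was then seen in 25 of the 59 and 20 of the 31 keratin-expressing cells and in 0.146% and 0.0988% of the other kept barcodes. Transcripts of the Y-linked genes Ddx3y, Eif2s3y, Kdm5d and Uty went the other way. They stood at 5.02 and 3.20 CPM in the Xist-positive cells, at 300 and 60.2 CPM in the Xist-negative cells and at 214 and 235 CPM in the other kept barcodes of these male mice. The Xist-negative values came from 11 of 29 PBS cells, 1 of which held 10 UMIs, and from 2 UMIs in 1 of 11 cmExoaCD11b cells. Most Xist-negative cells thus had no Y-linked UMI, and their origin was not tested.

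The label was checked against epithelial genes that the rule did not use. Among the Xist-positive cells, Krt7, a duct keratin, was detected in 29 of 30 PBS and 20 of 20 cmExoaCD11b cells. Cdh1, which encodes E-cadherin of adherens junctions, was detected in 29 and 20, and Msln, a surface glycoprotein of pancreatic adenocarcinoma, in 30 and 18. Epcam, an epithelial adhesion molecule, was present in fewer cells, 13 of 30 and 13 of 20. Thinned to 1000 UMIs, Krt7 was seen in 46.7% and 60% of the Xist-positive cells, against 0.248% and 0.169% of the other kept barcodes, which is read here as background.

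The Xist-negative cells were less uniform, and their depth limits what they can show. Thinned to 1000 UMIs, Krt7 was seen in 24.1% of the 29 PBS cells and in 54.5% of the 11 cmExoaCD11b cells, beside the 46.7% and 60% of the Xist-positive cells. These are single draws. In PBS they gave 14 of 30 Xist-positive and 7 of 29 Xist-negative cells, while another draw over all 59 cells gave 16. In cmExoaCD11b the numbers were 12 of 20, 6 of 11 and 18 of 31. Before thinning Krt7 was detected in 8 of 29 and 9 of 11 Xist-negative cells. The pan-leukocyte genes Ptprc, Coro1a, Laptm5, Cd52, Srgn, Tyrobp and Fcer1g summed to 7389 CPM in the 29 PBS and 1655 CPM in the 11 cmExoaCD11b cells, with per-cell medians of 3648 and 292 CPM. The same list stood at 273 and 84.7 CPM in the Xist-positive cells and at 10911 and 9886 CPM in the other kept barcodes. The label was thus weakest for the Xist-negative PBS cells, and the Xist-negative cells are named here by the rule alone.

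Defining markers of several other tissue cells were scarce. All 8 endocrine genes were at 0 in both libraries, as were 8 of 10 mesothelial, 8 of 10 fibroblast and stellate, and 4 of 8 endothelial genes. The smooth muscle and stellate actin Acta2 was an exception, at 101 and 18.2 CPM in 11 and 5 of the 90 cells. Of the 11 acinar genes in the files 2 were at 0 in both libraries, and the list summed to 174 and 28.8 CPM. Most of that was Reg1 at 111 and 10.6 CPM in 3 and 1 cells, and the elastase Cela1 at 37.7 and 18.2 CPM in 16 and 6 cells. No doublet caller was run. Other kept barcodes with at least 1 UMI of Krt8, Krt18 or Krt19 made up 6.18% in PBS and 3.03% in cmExoaCD11b, the background for keratin detection outside the selected cells. From the neutrophil genes, at 812 and 434 CPM in the keratin-expressing cells against 33205 and 40092 CPM in empty droplets, free RNA would make up 2.45% and 1.08% of their UMIs if all of it were free. The libraries shared no barcode among keratin-expressing cells and 15 among all kept barcodes, and 1 keratin-expressing cell had a barcode found among the kept barcodes of the other library.

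Accepted and refused barcodes lay close together at the keratin threshold. The lowest 3 accepted keratin shares were 0.1005%, 0.1009% and 0.1026% of UMIs in PBS, and the highest 3 refused were 0.0988%, 0.0972% and 0.0942%. In cmExoaCD11b they were 0.107%, 0.111% and 0.112%, against 0.0992%, 0.0986% and 0.0944%. Between 0.05% and 0.1% lay another 61 and 21 barcodes. Of the accepted cells, 7 in PBS and 1 in cmExoaCD11b had only 2 keratin UMIs, and 25 and 6 had fewer than 10. The leukocyte and S100 conditions removed 4 of 63 and 1 of 32 keratin-passing barcodes.

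Keratin-expressing cells were a smaller share of the cmExoaCD11b library. They made up 0.855% of kept barcodes in PBS (exact 95% interval 0.651 to 1.101%) and 0.436% in cmExoaCD11b (0.296 to 0.618%), a ratio of 0.510 (0.319 to 0.800). For the Xist-positive cells the shares were 0.435% (0.293 to 0.620%) and 0.281% (0.172 to 0.434%), and the ratio of 0.647 had an interval of 0.348 to 1.18 that includes 1. For the Xist-negative cells they were 0.420% and 0.155%, with a ratio of 0.368 (0.166 to 0.759). A share of barcodes depends on how many cells of every other type were captured, and fewer tumor cells and more immune cells cannot be told apart from it.

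The most abundant transcripts of the keratin-expressing cells outside the mitochondrial and ribosomal genes included secreted glycoproteins. Spp1, the matrix phosphoprotein osteopontin, stood at 16790 CPM in PBS and 11909 CPM in cmExoaCD11b, and Clu, the extracellular chaperone clusterin, at 8203 and 7015 CPM. Both varied widely between cells. Among Xist-positive cells, Spp1 ran from 214 to 109561 CPM with a median of 8060 in PBS and from 432 to 56575 with a median of 6380 in cmExoaCD11b, so the groups overlapped.

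The 20 genes with the highest level relative to the other kept barcodes, among 1280 genes at 100 CPM or more in both libraries, were 393 to 715 times higher in the keratin-expressing cells. Because expression chose the cells, this is a description and not a test. Wfdc2, a secreted protease inhibitor used as a carcinoma serum marker, led at 715 times. Next to it stood the mucosal peptide Tff2, the cornified envelope protein gene Sprr1a, the membrane proteins Tm4sf4 and Tspan8, and the epithelial transcription factor Elf3. The rule keratins Krt8, Krt18 and Krt19, the further keratins Krt7, Krt14 and Krt20, and Msln and Anxa10 were among them, as was Xist at 483 times. Krt14, usually a basal keratin, was detected in 23 of 30 and 16 of 20 Xist-positive cells at 179 and 189 CPM.

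Epithelial and mesenchymal transcripts were found in the same cells. Vim, the intermediate filament of mesenchymal cells, was detected in 30 of 30 and 20 of 20 Xist-positive cells, from 24.8 to 5580 CPM (median 2286) in PBS and from 216 to 6245 CPM (median 1722) in cmExoaCD11b. Fn1, which encodes the matrix protein fibronectin, stood at 375 and 379 CPM in them. Across the 50 cells the Spearman correlation of Vim was -0.22 with Epcam and -0.21 with Cdh1, while Epcam and Cdh1 correlated at 0.48. These cells share libraries and depths, and Vim correlated at 0.55 with the UMIs per cell. The libraries differed here, since the median Vim of cells without an Epcam UMI was 2854 CPM beside 1987 CPM with one in PBS, and 1502 beside 1837 CPM in cmExoaCD11b.

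**Figure D2:**
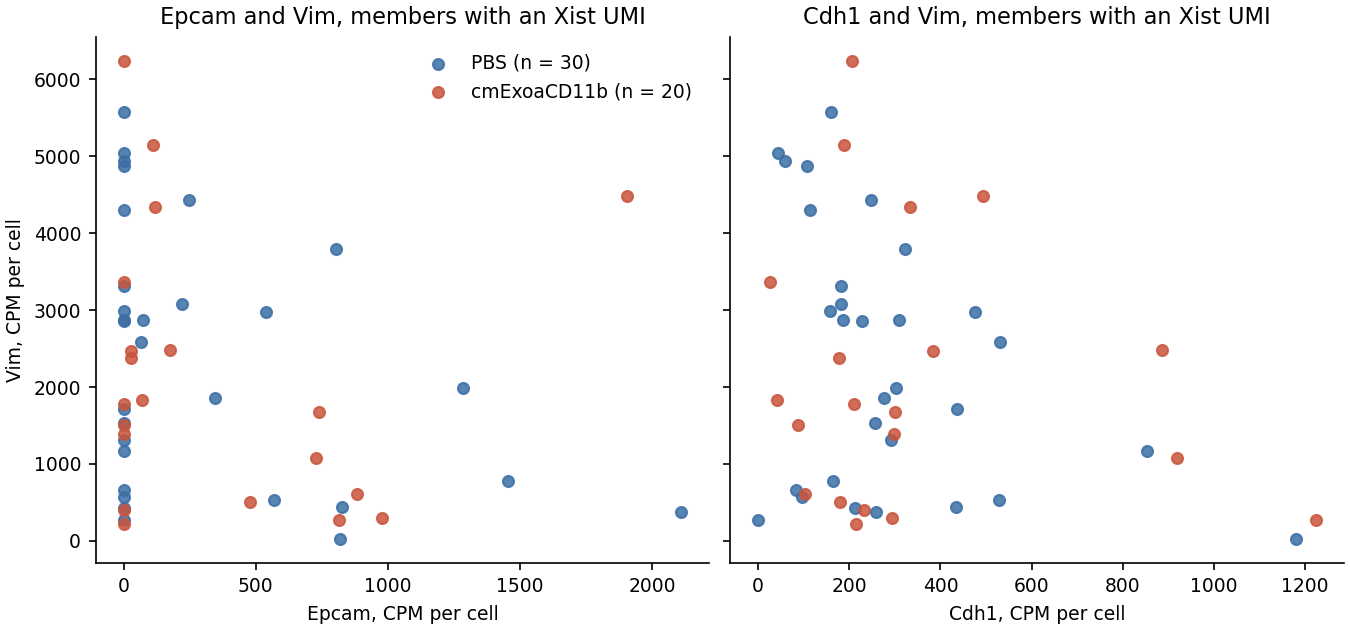
Vim against Epcam (left) and Cdh1 (right) in the 50 Xist-positive cells, in CPM per cell, blue for PBS (n = 30) and red for cmExoaCD11b (n = 20). Vim runs from 24.8 to 5580 CPM in PBS and from 216 to 6245 CPM in cmExoaCD11b, and cells without Epcam are found at low and high Vim.

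When the 90 cells were clustered by expression, 4 clusters formed, of which clusters 2 and 4 were shallow. Cluster 1 held 24 PBS and 12 cmExoaCD11b cells, 31 of them Xist-positive, and was led by the secretory genes Agr2 and Mucl3. Cluster 3 held 9 and 10 cells, 17 of them Xist-positive, led by Rhox5 and Cxcl1. Cluster 2 held 18 PBS cells and 1 cmExoaCD11b cell, 2 of them Xist-positive, with a median of 2421 UMIs and 667 CPM of Krt7. It was led by the leukocyte genes Slc2a3, Wfdc17, Hcar2, Selplg and Itgam, the last of which encodes CD11b, and had 320 CPM of Ptprc. Cluster 4 held 8 and 8 shallow cells with a median of 2285 UMIs, no Xist UMI, 0 UMIs of Ptprc and 1205 CPM of Krt7. It was led by Ube2c, a cell-cycle gene, and by Ngp and Camp, which encode neutrophil granule proteins. Leading genes of a cluster are what formed it and are not results.

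Between the libraries most genes of these cells differed by less than 2-fold. Of 5628 genes with at least 50 UMIs in the 90 cells, 85 were at least 2-fold higher in cmExoaCD11b (1.51%) and 226 at least 2-fold lower (4.02%), each ratio taken with 1 UMI added to both counts. The median log2 ratio over all 5628 genes was -0.069, and 2447 of them were above a ratio of 1. In the Xist-positive cells 5383 genes had 50 UMIs, of which 94 were at least 2-fold higher (1.75%) and 163 at least 2-fold lower (3.03%), with a median log2 ratio of -0.050. Of these 5383 genes, 2409 were above a ratio of 1. The percentages are the background for each 2-fold count that follows, and the numbers above 1 for each count above a ratio of 1. The minimum of 50 UMIs is on the sum of both libraries, so it partly sets each 2-fold count, higher or lower. In 118 of the 5628 genes, a single cell gave more than 50% of all UMIs.

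MHC class I presentation genes were higher in the cmExoaCD11b library, and most of its cells shared this. Over the 90 cells, 18 of 23 listed genes had 50 UMIs. All 18 were above a ratio of 1, beside 2447 of all 5628 genes. Of the 18, 7 were at least 2-fold higher and 0 at least 2-fold lower. Their median log2 ratio was 0.68 against -0.069 over all genes. The summed level was 5443 CPM in PBS and 8832 CPM in cmExoaCD11b. Among Xist-positive cells 17 genes had 50 UMIs, all 17 above 1 and 6 of them at least 2-fold higher, at a median of 0.67. Of these genes, H2-Q6 passed the minimum on 14 PBS and 45 cmExoaCD11b UMIs and H2-Q7 on 36 and 107. The minimum is on the sum of both libraries, so it partly sets these counts and medians. B2m, H2-K1 and H2-D1 passed it in each library alone. The summed list went from 5371 to 9084 CPM. Cell by cell the sum ran from 1110 to 12070 CPM in PBS (median 5034) and from 2805 to 23278 CPM in cmExoaCD11b (median 6745). The ranges overlapped, and 16 of the 20 cmExoaCD11b cells lay above the PBS median.

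B2m, the light chain common to class I molecules, was at 1249 CPM in the Xist-positive PBS cells and 2480 CPM in the cmExoaCD11b cells, a ratio of 1.99 (1.85 to 2.13). Per cell it ran from 111 to 3982 CPM (median 1134) in PBS and from 476 to 6596 CPM (median 1923) in cmExoaCD11b, with overlap. Without the cell of each library that had the most B2m, the ratio was 2.02. The classical heavy chains were at smaller ratios, with H2-K1 at 1025 and 1736 CPM (1.69) and H2-D1 at 814 and 1195 CPM (1.47). Reads of the H2 genes can be split between near-identical copies, so their single values are less certain than B2m.

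Genes that supply and load peptides were higher as well. Psmb10, Psmb9 and Psmb8 encode the catalytic subunits of the immunoproteasome. Psmb10 stood at 56.8 CPM in PBS and 155 CPM in cmExoaCD11b, a ratio of 2.72 (1.98 to 3.77), Psmb9 at 25.9 and 67.1 CPM, and Psmb8 at 51.0 and 125 CPM. The Psmb8 ratio of 2.24 over the 90 cells was 0.996 with each cell counted equally. Calr, the chaperone calreticulin of the peptide-loading complex, stood at 765 and 1155 CPM. The non-classical heavy chain H2-Q7 had the highest ratio of those named, at 30.1 CPM in 12 of 30 PBS cells and 171 CPM in 14 of 20 cmExoaCD11b cells, which gave 5.58 (3.86 to 8.54).

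In the Xist-negative cells the class I sum was ordered the other way, at 6567 CPM in PBS and 4092 CPM in cmExoaCD11b, beside their leukocyte RNA of 7389 and 1655 CPM. The part of that RNA in the difference was not tested. With each of the 90 cells thinned to 1000 UMIs, the 3 class I genes that kept 50 UMIs had a median of 0.035. In the other kept barcodes, which are mostly immune cells, the same 18 genes had a median log2 ratio of 0.33.

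MHC class II transcripts were low and unequal between cells. Cd74, the invariant chain that escorts class II molecules, stood at 51.0 CPM in 12 of 30 Xist-positive PBS cells and at 368 CPM in 11 of 20 cmExoaCD11b cells, a ratio of 7.12 (5.41 to 9.72). The median cell was at 0 in PBS and at 29.1 CPM in cmExoaCD11b, and the highest cells were at 423 and 2494 CPM. H2-Ab1, a class II beta chain, stood at 11.7 and 76.7 CPM with a ratio of 6.25 that was 3.08 without the highest cell of each library. Free RNA, estimated from the neutrophil genes of the Xist-positive cells, would supply 14.0 and 6.17 CPM of Cd74 there and 44.3 and 18.8 CPM of the class II sum of 96.1 and 602 CPM. The part of free RNA in the number of PBS cells with a UMI was not tested. Over the 90 cells the 3 of 10 listed genes with 50 UMIs were all at least 2-fold higher. The minimum is on the sum of both libraries, and H2-Ab1 passed it with 17 PBS and 48 cmExoaCD11b UMIs. This count is therefore partly set by the minimum and is a description only. The class II sum over all listed genes in the 90 cells was 124 and 575 CPM, with free RNA estimates of 82.2 and 25.3 CPM. The Xist-negative cells alone had the reverse order, at 561 CPM in PBS and 60.2 CPM in cmExoaCD11b. Both 90-cell values were below those of the other kept barcodes, at 2740 and 2248 CPM, where the same genes had a median log2 ratio of -0.20.

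**Figure D3:**
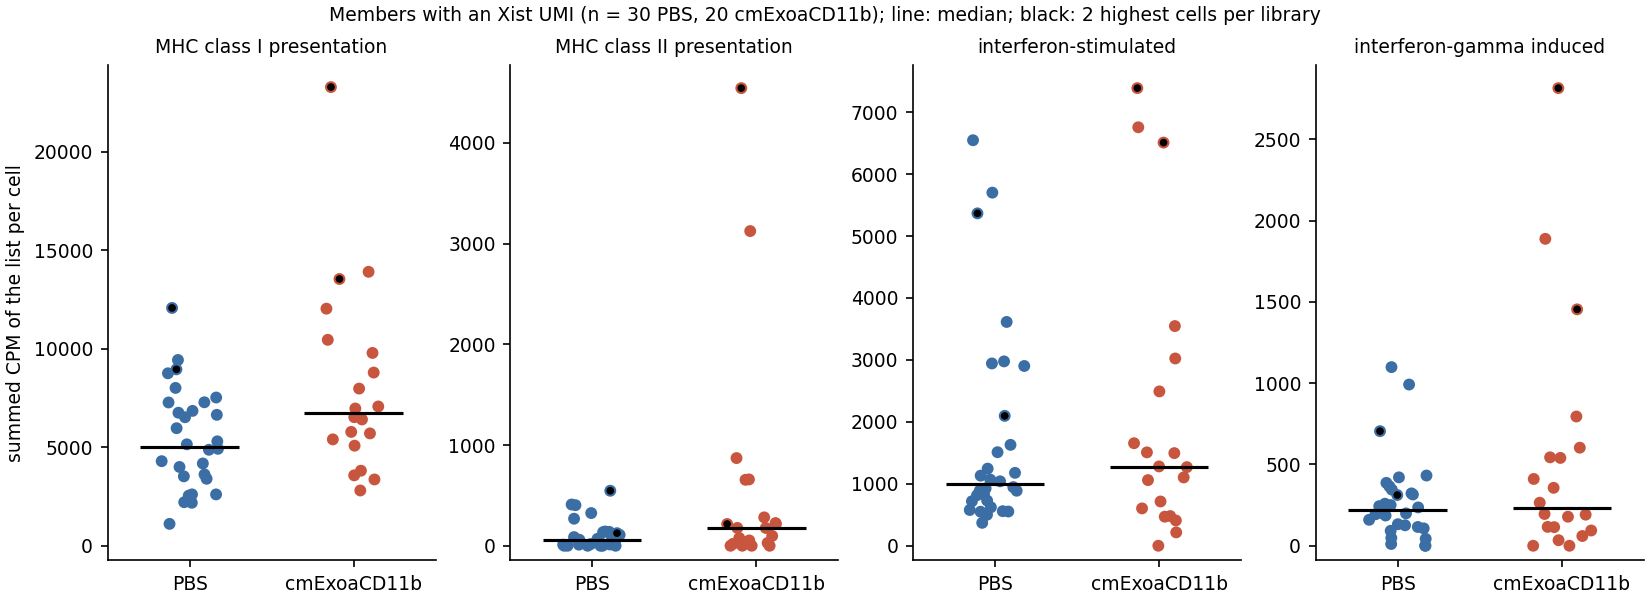
Each point is 1 Xist-positive cell and each panel a gene list, with the summed CPM of the list per cell on linear axes; lines are medians (30 PBS cells, 20 cmExoaCD11b cells) and black points the 2 cells per library highest in these lists together. The class I medians are 5034 and 6745 CPM, while the interferon-gamma induced medians are 218 and 230 CPM with a few high cmExoaCD11b cells.

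Interferon-stimulated genes were higher in cmExoaCD11b, but a few cells carried much of this, and the direction of the list did not hold in 5 of 19 alternatives. Over the 90 cells, 17 of 40 listed genes had 50 UMIs, of which 12 were above 1, 6 at least 2-fold higher and 0 at least 2-fold lower, at a median log2 ratio of 0.55. That median was -0.32 when each cell counted equally, -0.039 over the 5 genes left without cells holding a Ptprc UMI and -0.071 over the 3 genes with at least 200 UMIs. The minimum of 50 is on the sum of both libraries. Ifit3, on 9 PBS and 42 cmExoaCD11b UMIs, and Ifit1, on 21 and 53, passed it mainly through cmExoaCD11b. It thus partly sets the count and the median of 0.55. In the other kept barcodes the same 17 genes had a median log2 ratio of 1.17. Among Xist-positive cells 7 of 16 were at least 2-fold higher, at a median of 0.82, and the sum went from 1618 to 2341 CPM. The sum was ordered the other way in Xist-negative cells, at 4165 CPM in PBS and 1474 CPM in cmExoaCD11b, beside the leukocyte RNA given above, whose part in this was not tested. The median cell was at 993 CPM in PBS and 1275 CPM in cmExoaCD11b, the highest cells at 6546 and 7387 CPM, and 13 of 20 cmExoaCD11b cells lay above the PBS median. The cmExoaCD11b cell of 50898 UMIs had the highest CPM of the Xist-positive cells of its library for 10 of the 29 genes of the list that had 10 UMIs or more there, and the most UMIs for 18. Without the 2 cells per library that were highest in the interferon and MHC lists, 3 of the same 16 genes were at least 2-fold higher and the median was 0.30. With the minimum of 50 UMIs applied to the remaining cells, 8 genes were left and the median was -0.11. For class I, the same 17 genes were kept without these cells and without the minimum applied anew. Of them, 4 were at least 2-fold higher, at a median of 0.58.

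Ifit3, an RNA-binding antiviral protein gene, stood at 4.18 CPM in 3 PBS cells and 67.1 CPM in 4 cmExoaCD11b cells, a ratio of 13.7 (6.36 to 52.0) resting on 5 and 42 UMIs, which together are under the minimum of 50. Over the 90 cells the ratio was 8.31 (4.33 to 21.1) on 9 and 42 UMIs. Ifit1, of the same family, stood at 10.0 and 78.3 CPM, with most of its UMIs in 1 cmExoaCD11b cell. Rtp4, a receptor chaperone, was spread over 12 and 10 cells at 23.4 and 79.9 CPM (3.36), and Parp14, an ADP-ribosyltransferase, over 14 and 11 cells at 16.7 and 60.7 CPM (3.55). With each of the 90 cells counted equally, the ratios were below 1, at 0.819 for Ifit3, 0.936 for Rtp4 and 0.897 for Parp14. The more abundant members differed less. Bst2, the antiviral tether protein, stood at 228 and 294 CPM and Ifitm3, which blocks viral entry, at 717 and 708 CPM.

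Interferon-gamma induced genes also rested on few cells. Of 21 listed genes 6 had 50 UMIs over the 90 cells, and 4 were at least 2-fold higher and 0 at least 2-fold lower, at a median log2 ratio of 1.22. The same 6 genes stood at 1.02 in the other kept barcodes. Iigp1, an immunity-related GTPase, stood at 24.2 CPM in 8 Xist-positive PBS cells and 115 CPM in 6 cmExoaCD11b cells (4.65), and Gbp2, a guanylate-binding protein, at 18.4 CPM in 10 cells and 87.9 CPM in 5 (4.65, or 2.32 without the highest cells). Over the 90 cells Iigp1 passed the minimum of 50 with 29 PBS and 74 cmExoaCD11b UMIs, and Gbp2 with 24 and 57. The minimum is on the sum of both libraries, so it partly sets the count and the median of 1.22. In the Xist-positive cells the summed list was at 249 and 580 CPM, yet its per-cell medians were 218 and 230 CPM. Here too the Xist-negative sums were in the reverse order, at 992 CPM in PBS and 241 CPM in cmExoaCD11b. Without the 2 highest cells per library, 1 of the 5 genes with 50 UMIs in the Xist-positive cells was at least 2-fold higher in place of 3, and their median went from 1.29 to 0.20. The cmExoaCD11b cell of 34110 UMIs had 1085 CPM of Gbp2, 498 CPM of Ifit3, 6596 CPM of B2m and 2140 CPM of Cd74, with 2.23% keratin UMIs and 0 UMIs of Ptprc.

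The cells carried the receptors for both interferons in each library. None of the 9 measured genes of the list of interferon and IL-12 receptors and cGAMP sensing was 2-fold different. Ifngr1, an interferon-gamma receptor chain, stood at 165 and 136 CPM in the Xist-positive cells, and Ifnar2, a type I interferon receptor chain, at 55.2 and 65.5 CPM. Il12a, Il12b and Ifnb1 had 0 UMIs in the 90 cells of both libraries, which allows up to 2.36 CPM in PBS and 4.55 CPM in cmExoaCD11b.

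**Figure D4:**
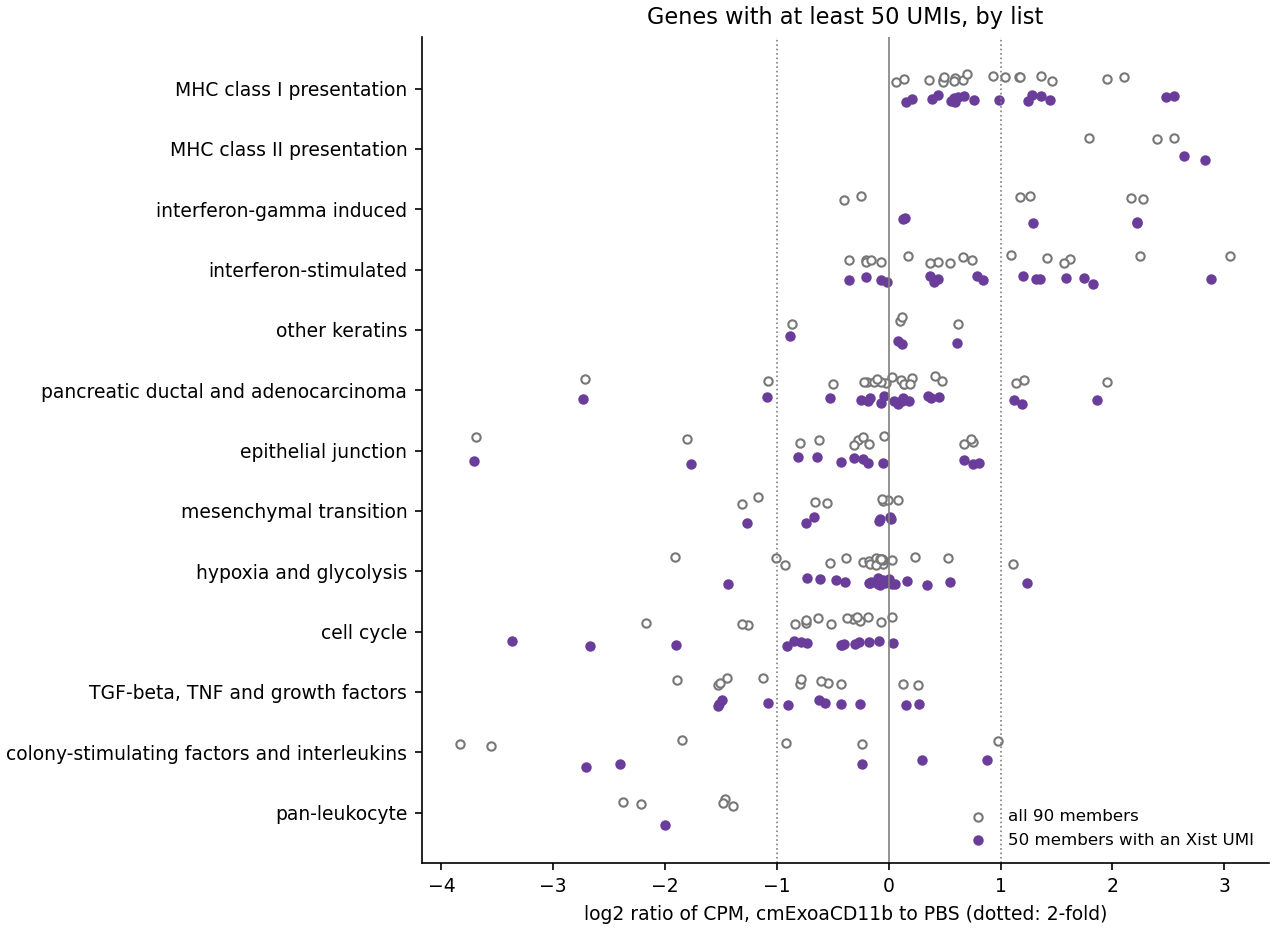
Log2 ratios of CPM, cmExoaCD11b to PBS, for each listed gene with at least 50 UMIs, in all 90 cells (open) and in the 50 Xist-positive cells (filled); dotted lines mark 2-fold. All class I genes lie right of 0 in both sets, and the growth factor list lies mostly left of it.

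The epithelial genes Epcam, Cdh1 and Msln were at like levels in the libraries, while Krt7 and Elf3 were higher and Cldn7 lower in cmExoaCD11b. In the Xist-positive cells Epcam stood at 340 and 328 CPM, Cdh1 at 298 and 262 CPM and Msln at 286 and 277 CPM. Krt7 was at 920 and 1403 CPM (1.53, 1.39 to 1.67), with medians of 732 and 971 CPM per cell. Of 12 junction genes with 50 UMIs over the 90 cells, 0 were at least 2-fold higher and 2 at least 2-fold lower. These were Cldn7, a tight-junction claudin, at 119 and 33.6 CPM in the Xist-positive cells (0.294, 0.170 to 0.449), and Cldn3. The latter had 49 UMIs in 2 PBS cells, 83.7% of them in 1 cell, and 1 UMI in cmExoaCD11b. Cldn3 thus reached the minimum of 50 through PBS, which partly sets this count. Elf3 stood at 112 and 189 CPM (1.69, 1.30 to 2.17).

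Of 20 pancreatic ductal and adenocarcinoma genes with 50 UMIs, 3 were at least 2-fold higher and 2 lower. Tff1 and Tff2, trefoil peptides of mucus-secreting epithelium, were confined to few cells. Tff1 stood at 60.2 CPM in 6 PBS cells and 221 CPM in 7 cmExoaCD11b cells, and Tff2 at 364 and 833 CPM in 10 and 7 cells. Leaving out the highest cell of each library took the Tff2 ratio from 2.28 to 9.43, so single cells set these values. Anxa10, an annexin of foveolar-type epithelium, was broader, at 182 CPM in 24 of 30 cells and 443 CPM in 14 of 20, a ratio of 2.43 (2.03 to 2.91). Pdx1 was lower, at 43.5 CPM in 23 of 30 cells and 19.2 CPM in 9 of 20, a ratio of 0.469 (0.214 to 0.837). Agr2 was lower as well, at 137 CPM in 2 PBS cells and 19.2 CPM in 1 cmExoaCD11b cell.

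Some of the most extreme ratios came from 1 cell. Of the 15 genes with the highest ratio over the 90 cells, 9 had more than 50% of their cmExoaCD11b UMIs in 1 cell, and of the 15 with the lowest, 5 had more than 50% of their PBS UMIs in 1 cell. Rhox5, an X-linked homeobox gene, had 58 UMIs in cmExoaCD11b, all in 1 cell, and 0 in PBS. Fam13a had 49 UMIs in 1 cmExoaCD11b cell against 3 in 1 PBS cell. In the other direction, 1 PBS cell held nearly all UMIs of the antimicrobial lectins Reg3b, at 1857 UMIs in PBS and 8 in cmExoaCD11b, and Reg3g, at 365 and 2. Mucl3, a mucin-like gene, had 101 UMIs in 3 PBS cells and 0 in cmExoaCD11b.

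Secreted signals to neutrophils and macrophages depended on which cells were counted. Over the 90 cells, 2 of 4 neutrophil-attracting chemokines with 50 UMIs were at least 2-fold lower and 1 higher. Of 6 colony-stimulating factors and interleukins, 3 were at least 2-fold lower and 0 higher. Csf1 passed the minimum on 54 PBS and 1 cmExoaCD11b UMIs, Il1a on 90 and 3, and Cxcl1, the higher gene, on 8 and 74. The minimum is on the sum of both libraries, so it partly sets these counts. In the Xist-negative cells the neutrophil-attracting list stood at 18656 CPM in PBS and 2618 CPM in cmExoaCD11b. In the Xist-positive cells it stood at 479 and 318 CPM, with per-cell medians of 267 and 95.7 CPM and 4 of 20 cmExoaCD11b cells above the PBS median. Of its 3 genes with 50 UMIs there, 1 was at least 2-fold lower (Cxcl2) and 1 at least 2-fold higher (Cxcl1). Free RNA, estimated as above but from the neutrophil genes of these cells alone, would supply 232 and 63.3 CPM of this list in the Xist-positive cells.

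Cxcl2, a CXCR2 ligand that myeloid cells also make, was at 17860 and 2588 CPM in the Xist-negative cells and at 317 and 89.5 CPM in the Xist-positive cells. Ccl3, a myeloid-cell chemokine, was at 3917 and 0 CPM in the former and 54.3 and 11.2 CPM in the latter. The interleukin-1 genes had the same layout, with Il1b at 2585 and 993 CPM beside 83.6 and 14.4 CPM and Il1a at 535 and 0 CPM beside 41.0 and 4.79 CPM. Csf1, the macrophage growth factor, stood at 339 and 0 CPM beside 23.4 and 1.60 CPM. The same estimate of free RNA was 203 and 57.7 CPM for Cxcl2, 29.1 and 6.51 CPM for Ccl3, 28.9 and 12.1 CPM for Il1b and 3.95 and 0.502 CPM for Il1a. A single PBS cell held 56.2% of the Xist-positive PBS UMIs of Cxcl2, and without the highest cell of each library the levels were 150 and 72.0 CPM, the first of them under its estimate. Likewise, Ccl3 without its highest cells was at 32.3 and 8.73 CPM, and Il1b in cmExoaCD11b rested on 9 UMIs. How much of the Cxcl2, Ccl3 and Il1b levels is free RNA could not be told at this depth. Each of these was thus highest in the shallow PBS cells, where the pan-leukocyte genes summed to 7389 CPM; the part of leukocyte RNA in these values was not tested. Among the 15 genes with the lowest ratio over the 90 cells, 10 were higher in the other kept barcodes of PBS than in the keratin-expressing cells, including Acod1, a gene of activated myeloid cells, and Nr4a1, an immediate-early nuclear receptor gene. Nr4a1 was low in the Xist-positive cells too, at 52.7 CPM in 12 PBS cells (63 UMIs) and 1.60 CPM in 1 cmExoaCD11b cell (1 UMI).

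**Figure D5:**
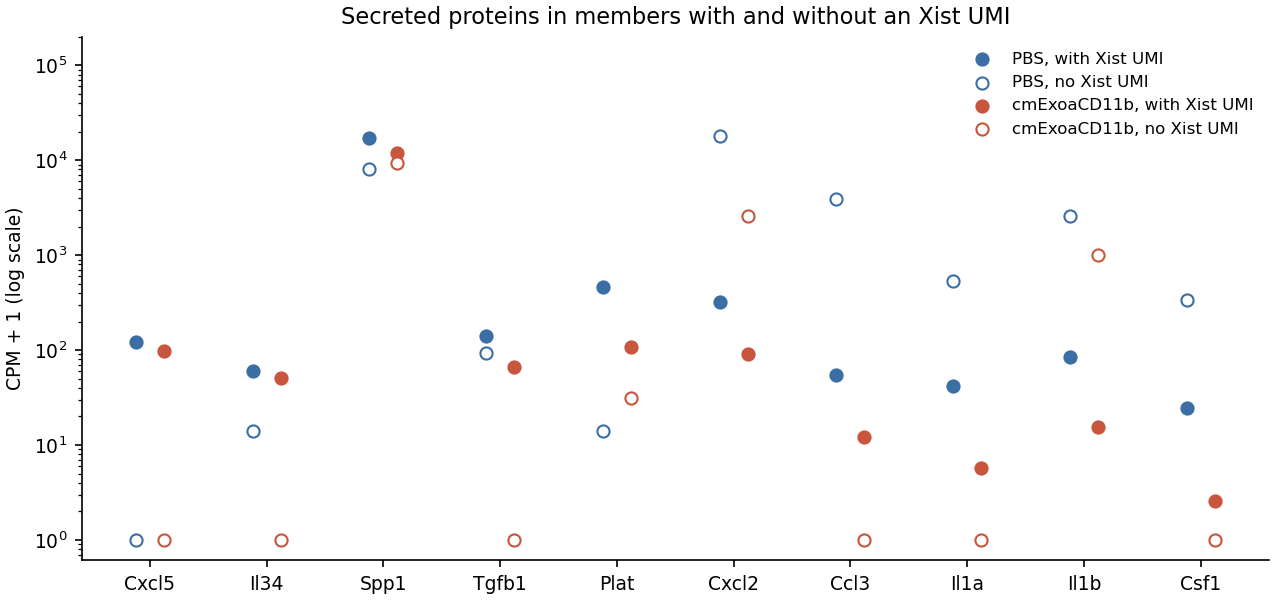
CPM plus 1 on a log axis for 10 genes, most of them secreted, in Xist-positive (filled) and Xist-negative (open) cells of PBS (blue) and cmExoaCD11b (red), each point 1 summed group of 30, 29, 20 or 11 cells. Cxcl5, Il34 and Plat are higher in filled points, while Cxcl2, Ccl3 and Il1b are highest in the open PBS points, Cxcl2 at 17860 CPM.

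Several other ligands were not at higher levels in the shallow PBS cells than in the Xist-positive PBS cells. Cxcl5, a neutrophil chemokine of epithelial cells, stood at 122 CPM in 13 PBS cells and 95.9 CPM in 9 cmExoaCD11b cells, and at 0 in the Xist-negative cells of both libraries. Il34, the second ligand of the macrophage receptor Csf1r, stood at 59.4 and 49.5 CPM, Cxcl16, a membrane-bound T cell chemokine, at 92.0 and 104 CPM, and the alarmin Il33 at 40.1 and 73.5 CPM. In the Xist-negative cells Il34 stood at 13.1 and 0 CPM, Cxcl16 at 39.2 and 60.2 CPM and Il33 at 13.1 and 120 CPM. The T cell chemokine Cxcl9 was found in 2 and 4 cells, at 38.5 and 153 CPM, and its ratio turned to 0.566 without the 2 cells per library highest in the interferon and MHC lists. Cxcl1 and Ccl2 had 74 and 50 UMIs in cmExoaCD11b, with most of the UMIs of each in 1 cell. Ccl2, a monocyte chemokine, stood in PBS at 10.0 CPM in the Xist-positive cells, where free RNA would supply 7.66 CPM, and at 39.2 CPM in the Xist-negative cells. With each of the 90 cells counted equally, the Ccl2 ratio turned from 6.16 to 0.820.

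Most measured growth factors of the list used had a ratio below 1 over the 90 cells, but 7 of 12 lay within 2-fold. Of 12 genes of this list with 50 UMIs, 5 were at least 2-fold lower and 0 at least 2-fold higher over the 90 cells, and 2 were above a ratio of 1, at a median log2 ratio of -0.79, and the same genes stood at -1.29 in the other kept barcodes. Among Xist-positive cells 4 of 11 were at least 2-fold lower, at -0.62. There Areg passed the minimum on 98 PBS and 17 cmExoaCD11b UMIs and Gdf15 on 85 and 15, so it partly sets this count. Tgfb1, which restrains T cells and drives stroma, was spread widely, at 141 CPM in 25 of 30 PBS cells and 65.5 CPM in 12 of 20 cmExoaCD11b cells. Its medians were 122 and 47.8 CPM per cell and its ratio 0.472 (0.321 to 0.656), or 0.444 without the highest cells. The EGF-receptor ligand Areg stood at 81.9 and 27.2 CPM, the platelet-derived growth factor Pdgfa at 67.7 and 22.4 CPM, and the stress cytokine Gdf15 at 71.1 and 24.0 CPM. Vegfa, the angiogenic factor, stood at 139 and 92.7 CPM, within 2-fold. Mif, a macrophage-regulating cytokine and the most abundant gene of the list, was higher, at 697 and 841 CPM (1.21), and the summed list stood at 1826 and 1584 CPM.

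Plat, tissue plasminogen activator, was lower in cmExoaCD11b and was detected in most cells. It stood at 459 CPM in 25 of 30 PBS cells and 107 CPM in 13 of 20 cmExoaCD11b cells. The median cell was at 195 and 83.2 CPM, the highest at 1315 and 318 CPM, and the lowest at 0 in both libraries, so the ranges overlapped. The ratio was 0.236 (0.178 to 0.301), and 0.239 without the highest cells. Of the 11 matrix protease and basement membrane genes with 50 UMIs, Plat was the 1 that was 2-fold lower, and 0 were 2-fold higher.

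Cell-cycle transcripts came from few cells. At least 10 UMIs of Mki67, Top2a, Birc5, Ube2c, Ccnb1 and Cenpf were found in 5 of 30 Xist-positive PBS cells (16.7%, exact 95% interval 5.64 to 34.7%) and in 2 of 20 cmExoaCD11b cells (10%, 1.23 to 31.7%), intervals that overlap widely. Mki67, a marker of dividing cells, stood at 45.1 and 24.0 CPM and the topoisomerase Top2a at 92.8 and 52.7 CPM. Of 15 genes with 50 UMIs, 3 were at least 2-fold lower and 0 higher, including the survivin gene Birc5. The Birc5 ratio over the 90 cells went from 0.417 to 1.91 with each cell counted equally, and it was 1.32 on 26 and 20 UMIs without cells holding a Ptprc UMI. Ccnd1, the cyclin of early G1, stood at 394 and 222 CPM in the Xist-positive cells (0.567, 0.464 to 0.683), with medians of 322 and 173 CPM per cell. Trp53 3' tags were present at 135 and 112 CPM in these cells. Tags from outside the deleted part check nothing about the deletion.

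Stress, hypoxia and checkpoint genes showed no common direction in the Xist-positive cells. The stress and immediate-early list had 0 of 10 genes at least 2-fold higher and 1 lower, the heat-shock gene Hspa1a at 113 and 40.0 CPM, with Hspa5, the ER chaperone BiP, at 603 and 1007 CPM and the small heat-shock protein Hspb1 at 1023 and 1611 CPM. The hypoxia and glycolysis list had 1 of 20 at least 2-fold higher, Pdk1, a pyruvate dehydrogenase kinase, at 24.2 and 57.5 CPM, and 1 lower. Cd47, a ligand that restrains phagocytosis, stood at 262 and 259 CPM. Cd274, which encodes PD-L1, had 8.36 and 6.39 CPM in these cells, from 10 and 4 UMIs, and 535 and 120 CPM in the Xist-negative cells, and a difference was not detectable at this depth.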

How the data were processed

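The authors deposited raw matrices of UMI counts per gene and droplet barcode, empty droplets included, from 10x Chromium 3' libraries. Their headers name Cell Ranger 7.1.0; the genome build is not given in the sources used here. The 32285 genes summed to 67143628 UMIs over 644248 barcodes in PBS and 81288480 UMIs over 723594 in cmExoaCD11b. Counts of the selected cells were summed per library and divided by their total UMIs (CPM). Ratios, with 1 UMI added to each count, cover genes with at least 50 UMIs over both libraries. This minimum is on the sum of the libraries, so a gene low in 1 of them can pass through the other. Intervals are exact (Clopper-Pearson for shares, conditional binomial for ratios), at 95%. A count of 0 was read against 3 counts. No doublet caller was run. Cells were clustered in scanpy 1.11.5 (2000 variable genes, 15 components, 15 neighbors, Leiden resolution 0.5). Empty droplets were barcodes with at most 100 UMIs. The selection, gene lists and tests were chosen with earlier results of these data known, and the Xist split and the examples named within lists after their values were seen. Named genes were the 15 most extreme ratios each way, the 20 most abundant, the 20 most raised over other barcodes, and examples from each list. Alternatives changed each threshold, the added count and the weighting of cells. The procedure was tested on simulated data. Python 3.11.15, scipy 1.17.1 and pandas 2.3.3 were used. A further allele of the mouse that K210 came from and 1 gene list are not reported here.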

Additional observations from a re-analysis of the deposited data

Results flagged for a closer look

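Among lists with at least 3 measured genes that the selection did not use, 9 had a median log2 ratio (cmExoaCD11b to PBS) of opposite sign in the keratin-expressing cells and in the other kept barcodes, which are mostly immune cells. In 4 of them the medians lay less than 1 apart, and the 5 that lay at least 1 apart follow. The difference was not tested in any of them, with 1 library per group. The MHC class II list stood at 2.39 in the keratin-expressing cells and at -0.20 in the other barcodes. Its 3 genes passed a minimum on the sum of both libraries, which partly sets the first value. The neutrophil list stood at -1.30 and 0.17, and the acute-phase secreted proteins at -0.73 and 0.32. The other keratins stood at 0.11 and -1.65, and the pancreatic ductal and adenocarcinoma genes at 0.070 and -1.11. In the other barcodes the 12 other keratins summed to 9.34 and 5.63 CPM, against 1307 and 1795 CPM in the keratin-expressing cells. The neutrophil genes summed to 812 and 434 CPM in the keratin-expressing cells, and in the Xist-positive ones to 438 and 321 CPM. The Xist-positive medians were -0.60 for the neutrophil list and -0.34 for the acute-phase list. Without the 2 cells per library highest in the interferon and MHC lists, the acute-phase median was 0.034. In the Xist-negative cells the acute-phase list summed to 2676 and 782 CPM.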

How the results depend on the processing

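No paired analysis was possible because each group is 1 library from its own pool of mice. The share ratio kept its direction under all 10 alternatives that change the cells (0.420 to 0.713), and the MHC class I median stayed above 0 in all 19 (0.035 to 0.80). The lowest, 0.035, came from thinning each cell to 1000 UMIs, which gives shallow cells the weight of deep ones and left 230 genes with 50 UMIs, 3 of them in the class I list and 1 in the interferon-stimulated list. Of these 230 genes, 9 were 2-fold higher and 38 lower, and the interferon-stimulated median was -1.01. Outside these 230 genes, on only 1 to 7 thinned UMIs each, ratios turned for Ifit1 (0.544), Ccl2 (0.476), Pdk1 (0.381), Gdf15 (3.81), Birc5 (1.43) and Cftr (0.952). Averaging each cell's CPM gave 412 genes higher and 614 lower and an interferon-stimulated median of -0.32, with ratios turned for Psmb8 (0.996), Ifit3 (0.819), Rtp4 (0.936), Ccl2 (0.820), Parp14 (0.897) and Birc5 (1.91). Without cells holding a Ptprc UMI, 55 genes were higher and 149 lower, the interferon-stimulated median was -0.039, and Tff1 (0.821), Birc5 (1.32, 46 UMIs) and Fam13a (0.423, 3 UMIs) turned. A minimum of 20 UMIs per gene gave 225 higher and 538 lower, and a minimum of 200 gave 17 and 41 with an interferon-stimulated median of -0.071. Among alternatives chosen after seeing the data, leaving out the 2 Xist-positive cells per library highest in interferon and MHC genes, with the minimum of 50 UMIs applied anew, gave an interferon-stimulated median of -0.11 and turned Cxcl9 (0.566) and Fam13a (0.512). The settings changed the cells, their weight or the genes compared, and the cause of each change was not tested. Of 42 named genes past 2-fold, 8 stayed past it the same way in each of the 19 alternatives that gave them a value. These were Ccl3, Cxcl1, Mucl3, Nr4a1, Plat, Reg3b, Reg3g and Rhox5. Of them, Reg3b, Reg3g and Rhox5 came nearly all from 1 cell. A single cell also held 78.4% of the cmExoaCD11b UMIs of Cxcl1 and 59.4% of the PBS UMIs of Mucl3. Without its highest cell Rhox5 had no UMI left in either library. Its ratio there came only from the 1 UMI added to each count and the library totals, and shows no stability. Depth limits what the 29 and 11 Xist-negative cells can show.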
